A study of Mus musculus with 6 samples.

Results

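The snoRNA host genes Snhg1, Snhg3, Snhg5, Snhg6, Snhg8, Snhg12 and Gas5, the coding gene Rcc1 beside Snhg3 and the nuclear long noncoding RNAs Malat1 and Neat1 were followed in sorted bone marrow hematopoietic stem cells (HSCs) of Cdk19 knockout and wild-type mice. They were chosen by gene symbol, and each symbol was carried by 1 transcript cluster, the set of array probes assigned to a gene or transcript. The 10 clusters were among 65956 on the array. In 5 of them the member was the only symbol, and the other 5 carried the symbol of a snoRNA or microRNA gene as well, so that the transcripts in such a cluster cannot be told apart. All 10 were bright enough to be tested, among 39543 clusters that were.

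There were 3 arrays of CDK19-/- mice and 3 of WT mice, all 6 to 8 weeks old, and the labels call them biological replicates. CDK19 is a kinase bound to Mediator, the bridge between transcription factors and RNA polymerase II, and the series title asks how it bears on HSC proliferation through p53 and p21. Marrow flushed from tibia, femur and ilium was enriched for lineage-negative cells, stained for HSC markers and sorted, and total RNA was put on the arrays. The labels do not give the sex, the number of animals per array, the gate or the deleted part of Cdk19, nor say whether a deletion was in all cells. The values are taken as log2, and all changes below are knockout minus wild type on that scale. Levels of different clusters are not compared, because probes differ in response.

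Small nucleolar RNAs (snoRNAs) guide the chemical modification of ribosomal RNA, box C/D snoRNAs its methylation and box H/ACA snoRNAs its pseudouridylation, and some of them act in its cleavage. In mammals most are cut out of the introns of host genes after splicing, so that 1 transcript gives both a spliced host RNA and its snoRNAs. Noncoding hosts code for no known protein, and many of their spliced RNAs are short-lived, being degraded when ribosomes engage them (nonsense-mediated decay). Gas5 was named for its accumulation in growth-arrested cells. Malat1 lies in nuclear speckles, where splicing factors gather, and Neat1 is the RNA scaffold of paraspeckles. Rcc1 codes for the chromatin-bound exchange factor of the GTPase Ran.

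Many host genes and genes of the translation machinery start their transcripts with a run of pyrimidines, the terminal oligopyrimidine (TOP) tract, which ties translation to growth signals. The windows of 60 bases around annotated starts of 6 hosts are shown because the tract is a sequence feature that many hosts share and that choosing genes by symbol did not use. They are from RefSeq (GRCm38.p6), 5′ to 3′, with 30 bases on each side of the start. Capitals mark the tract, taken as a C followed by at least 4 pyrimidines and beginning within 5 bases of the start on the transcribed strand. For Gas5 the second annotated start is shown.
Snhg8, chr3:123508307-123508366, minus strand: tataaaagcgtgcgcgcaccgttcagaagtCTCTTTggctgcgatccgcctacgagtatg
Snhg12, chr4:132308648-132308707, plus strand: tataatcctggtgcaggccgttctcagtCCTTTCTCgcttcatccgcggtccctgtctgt
Snhg3, chr4:132353657-132353716, minus strand: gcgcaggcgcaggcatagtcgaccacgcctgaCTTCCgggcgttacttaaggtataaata
Gas5, chr1:161035136-161035195, plus strand: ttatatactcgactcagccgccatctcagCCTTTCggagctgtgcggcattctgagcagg
Snhg1, chr19:8723457-8723516, plus strand: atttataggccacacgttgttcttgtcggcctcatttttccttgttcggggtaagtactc
Snhg5, chr9:88522868-88522927, minus strand: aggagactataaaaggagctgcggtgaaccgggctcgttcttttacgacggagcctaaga
A tract was found at a start of 5 of the 8 members with a window (Snhg3, Snhg8, Snhg12, Gas5 and Rcc1), and in none of the windows of Snhg1, Snhg5 and Malat1. The first annotated start of Gas5 had none. Such a tract was held by 18.3% of all 32851 windows, each counted singly. Members were instead counted by gene, with a tract at any annotated start. Counted that way, 26 of 53 ribosomal protein genes held one. The search depends on the annotated start: the Snhg5 window holds CTTTT beyond the 5 bases allowed. A window without a match is thus not shown to lack a tract. In the full 300-base windows the letters TATAAA of the TATA box, searched on both strands, were found in Snhg1, Snhg3, Snhg5 and Snhg8, against 13.6% of all windows. In the printed window of Snhg3 they stand after the start, and in those of Snhg5 and Snhg8 before it. CCAAT, also on both strands, was found in Snhg3, Snhg5 and Snhg8, against 37.4% of all windows. A match is a description of these letters and not a binding site.

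Of the 10 clusters, 0 passed the test between the genotypes, while over all clusters with a test 2.96% were called higher and 4.84% lower (limma; Benjamini-Hochberg adjusted over every tested cluster, called under 0.05). The Gas5 and Snhg12 clusters had an unadjusted p under 0.05, which made 2 of 10, where 21.6% of all tested clusters had one. The median change of the 10 was -0.10, against 0.00 over all tested clusters, and 9 of the 10 changes were negative. In 1 of the 10, the Gas5 cluster, the 2 genotypes did not overlap, which was so in 26.5% of all tested clusters. The 95% interval of the change stayed within 0.5 of 0 for 9 clusters, and the widest bound was -0.53, for Snhg3. With 1 array left out the change moved between -0.28 and -0.03 for Snhg8 (without knockout arrays 3 and 2), between -0.23 and -0.04 for Snhg5 (without knockout arrays 3 and 2) and between -0.30 and -0.05 for Snhg3 (without wild-type array 2 and knockout array 2). The RNA came from sorted cells in bulk, so fewer cells of a type and less RNA per cell cannot be told apart.

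**Figure D1:**
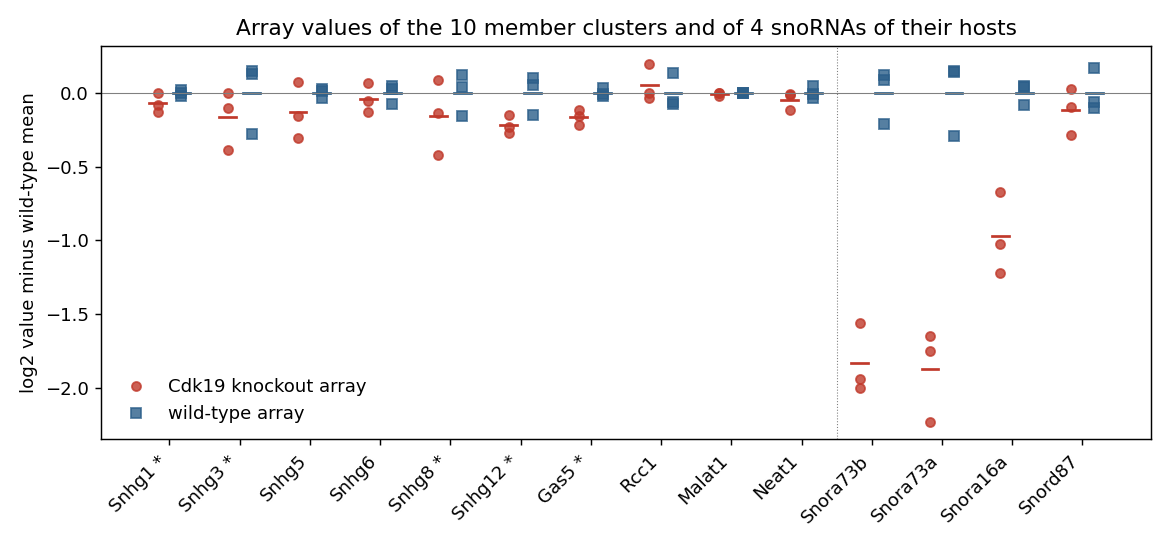
Array values of the 10 member clusters and of 4 snoRNAs of their hosts, as log2 value minus the wild-type mean of the same cluster. Circles are knockout arrays, squares wild-type arrays, and bars the means of 3 arrays. An asterisk marks a cluster that also carries another symbol. For 9 of the 10 members the groups overlap or touch, and the Gas5 knockout arrays lie just below the wild-type arrays. Those of Snora73b, Snora73a and Snora16a lie below every wild-type array, with mean differences of -1.83, -1.88 and -0.97.

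Among the genes with a cluster of their own, Snhg5, a noncoding host known for box C/D snoRNAs, read 10.16, 10.01 and 10.39 in the knockout arrays, against 10.34, 10.33 and 10.28 in the wild-type arrays. The highest single value and the 2 lowest were in knockout arrays, so the groups overlapped. The change was -0.13 (SE 0.10; 95% interval -0.37 to 0.11; limma adjusted p = 0.528). Snhg6, host of the C/D snoRNA Snord87, read 6.96, 6.84 and 6.76 in the knockout, against 6.92, 6.82 and 6.94 in wild type. Its groups were interleaved, with a change of -0.04 (SE 0.08; interval -0.22 to 0.14; limma adjusted p = 0.829), and the sign turned to 0.01 without knockout array 3. Rcc1, the 1 protein-coding gene of the 10, read 5.64, 5.61 and 5.84 in the knockout, against 5.57, 5.78 and 5.58 in wild type. Here too the groups were interleaved, with a change of 0.05 (SE 0.10; interval -0.17 to 0.28; limma adjusted p = 0.813), and it was -0.02 without knockout array 3.

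A further 5 clusters held a host together with a small RNA, and the values belong to the whole cluster. The cluster of Snhg1 and the C/D snoRNA Snord22 read 12.37, 12.42 and 12.50 in the knockout, against 12.52, 12.48 and 12.50 in wild type. One knockout array equalled a wild-type array, and the change was -0.07 (SE 0.05; interval -0.19 to 0.05; limma adjusted p = 0.504). The cluster of Snhg3 and the H/ACA snoRNA Snora73a read 7.61, 7.22 and 7.51 in the knockout, against 7.74, 7.33 and 7.76 in wild type. In each genotype array 2 was the lowest, wild-type array 2 was below 2 knockout arrays, and the change was -0.16 (SE 0.15; interval -0.53 to 0.20; limma adjusted p = 0.616).

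The cluster of Snhg8 and the H/ACA snoRNA Snora24 read 9.08, 8.80 and 9.31 in the knockout, against 9.06, 9.34 and 9.26 in wild type. Knockout array 2 lay apart below the other 5, and the change was -0.16 (SE 0.14; interval -0.49 to 0.18; limma adjusted p = 0.602). The cluster of Snhg12 with Snord99, Snora61 and Snora44 read 8.59, 8.55 and 8.67 in the knockout, against 8.67, 8.92 and 8.87 in wild type. The groups touched at 8.67. The change was -0.22 (SE 0.08; interval -0.41 to -0.02; limma adjusted p = 0.193), the most negative of the 10. The cluster of Gas5 with Snord47 and Mir5117 read 12.41, 12.47 and 12.51 in the knockout, against 12.66, 12.61 and 12.62 in wild type. All 3 knockout arrays lay below all 3 wild-type arrays, by a change of -0.17 (SE 0.05; interval -0.28 to -0.05), and the adjusted p of 0.0937 from limma missed the threshold. Over 13 other settings of the processing the adjusted p of the Gas5 cluster ran from 0.0749 to 0.249 and that of the Snhg12 cluster from 0.101 to 0.439.

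The nuclear long noncoding RNAs varied little between arrays. Malat1 read 18.48, 18.48 and 18.46 in the knockout arrays and 18.48 in all 3 wild-type arrays, a change of -0.01 (SE 0.02; interval -0.06 to 0.05; limma adjusted p = 0.918). Its SD over the 6 arrays was 0.00816. Malat1 lay in the bright range of the scale, where few differences were read: of 197 clusters with a mean of 18 to 19, 2 were called, or 1.02%, and their median SD was 0.0449. Of the 585 clusters between 16 and 18, 28.0% were called with a median SD of 0.115, and of the 164 above 19, 0 were called, where 78.7% had an SD under 0.02. The part of this ceiling in the reading of Malat1 was not tested. Neat1 lay below it and read 15.04, 14.93 and 15.03 in the knockout, against 15.09, 15.01 and 15.04 in wild type. The groups overlapped, with a change of -0.05 (SE 0.05; interval -0.16 to 0.06; limma adjusted p = 0.641), in a range of brightness (12 to 16) where 17.3% of 2056 clusters were called.

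**Figure D2:**
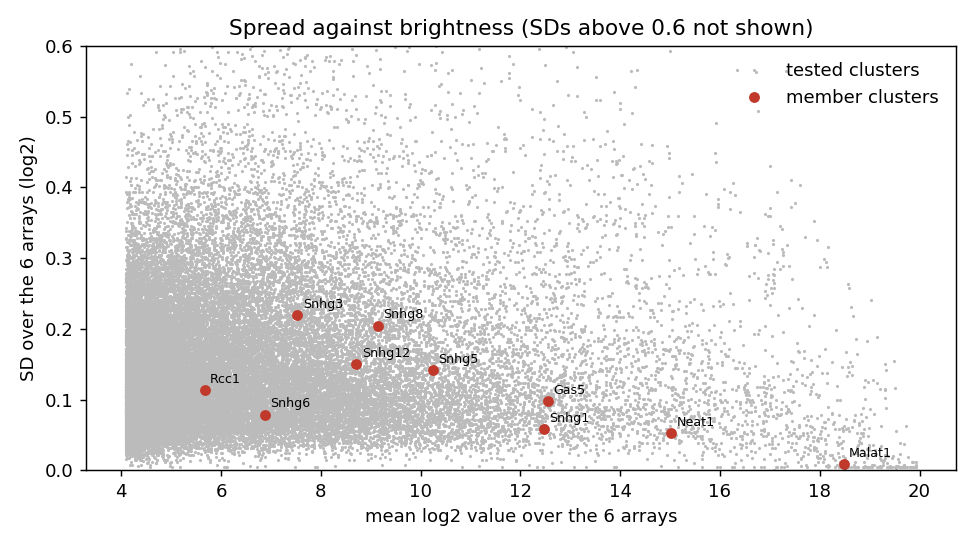
SD over the 6 arrays against mean log2 value, 1 point per tested cluster, with the 10 member clusters in red; SDs above 0.6 lie outside the plot. The spread of the tested clusters narrows at the bright end, and Malat1 stands in that end at an SD of 0.00816.

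The snoRNAs inside the same hosts were also on the array. RefSeq places 26 snoRNA genes within the 7 hosts, 8 each in Snhg1 and Gas5, 4 in Snhg12, 2 each in Snhg3 and Snhg5 and 1 each in Snhg6 and Snhg8, and none in Rcc1, Malat1 or Neat1. Of these, 16 have no gene name in that table, 6 were seen only in a cluster shared with their host, and 4 had a cluster of their own. Of those 4, 3 were lower in the knockout, 0 higher, and 1 did not pass, where 4.84% of all tested clusters were called lower.

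Snora73b, an H/ACA snoRNA of Snhg3 and of the U17 family, which acts in the cleavage that frees 18S ribosomal RNA, read 12.42, 12.48 and 12.86 in the knockout, against 14.21, 14.51 and 14.54 in wild type. All knockout arrays lay more than 1 unit below the wild-type arrays. It fell by 1.83 on the log2 scale (SE 0.14; limma adjusted p = 0.00118), which is 3.56-fold lower (95% interval 2.83 to 4.49). A second cluster named Snora73b read 12.01, 11.86 and 12.28 in the knockout, against 13.91, 14.16 and 14.02 in wild type, and fell by 1.98 (SE 0.12; limma adjusted p = 0.00044). Snora73a, its close copy in the same host, read 12.22, 11.74 and 12.32 in the knockout, against 13.68, 14.11 and 14.12 in wild type. Again the groups lay well apart, and it fell by 1.88 (SE 0.18; limma adjusted p = 0.00261), or 3.67-fold (95% interval 2.71 to 4.97). The platform marks the second Snora73b cluster and the Snora73a cluster as unmapped, so neither is tied to the Snhg3 locus by position. The copies are similar in sequence, so which of them each cluster reads is uncertain, and they are not independent of each other.

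Snora16a, an H/ACA snoRNA of Snhg12, read 15.99, 16.19 and 16.54 in the knockout, against 17.26, 17.13 and 17.25 in wild type. The groups did not overlap, and it fell by 0.97 (SE 0.13; limma adjusted p = 0.00801), or 1.96-fold (95% interval 1.58 to 2.44). Snord87, the C/D snoRNA of Snhg6, read 15.81, 16 and 16.12 in the knockout, against 16.03, 15.99 and 16.26 in wild type. Its groups overlapped, with a change of -0.12 (SE 0.10; interval -0.36 to 0.12; limma adjusted p = 0.583). The 3 lower calls were kept under every alternative in the processing that was run.

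**Figure D3:**
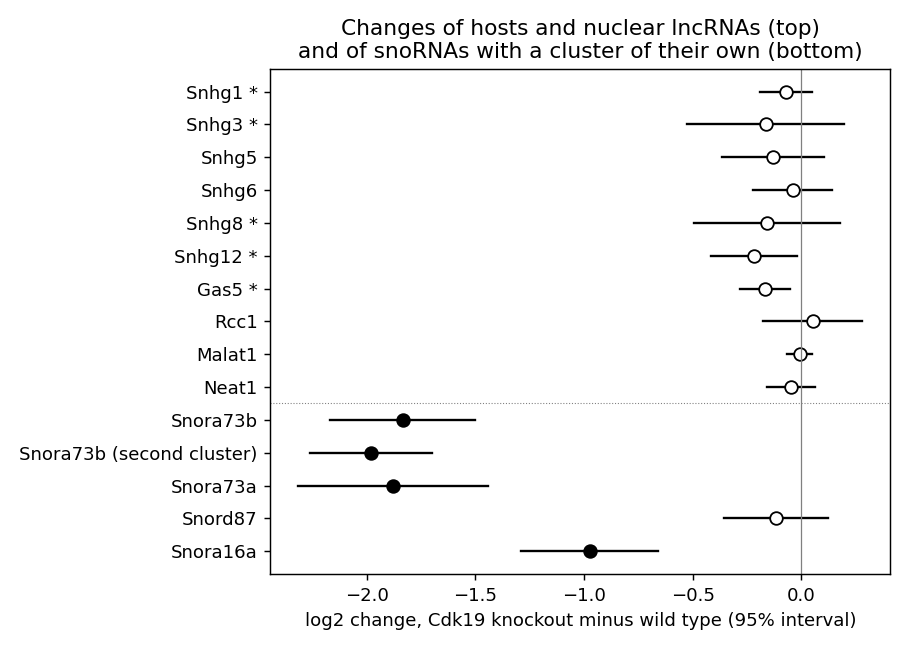
Log2 change, knockout minus wild type, with 95% intervals: the 10 members above the dotted line, and below it the 5 clusters of the 4 snoRNAs with a cluster of their own. Filled points passed the test and open points did not; an asterisk marks a cluster shared with another symbol. The members lie within 0.22 of 0, while the clusters of Snora73b, Snora73a and Snora16a lie between -1.98 and -0.97.

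The log2 value of the snoRNA minus that of its host was taken within each array, to be compared between the genotypes. Its size has no meaning of its own, since the probes differ. For Snhg3, with the mean of Snora73a and Snora73b, it was 4.71, 4.89 and 5.08 in the knockout, against 6.205, 6.98 and 6.57 in wild type. The genotypes differed by -1.69, and all 3 knockout arrays were below all 3 wild-type arrays (exact permutation test, two-sided p = 0.10). For Snhg12, with Snora16a, it was 7.40, 7.64 and 7.87 in the knockout, against 8.59, 8.21 and 8.38 in wild type. Here the genotypes differed by -0.76, again with no overlap (exact permutation p = 0.10). For Snhg6, with Snord87, they differed by -0.08 (exact permutation p = 0.80), and it was 0.06 without knockout array 1. With 3 arrays against 3 no exact p can be below 0.10. The Snora73a part of the Snhg3 mean is from the cluster marked as unmapped. The host cluster of Snhg3 carries the symbol Snora73a and that of Snhg12 carries those of 3 other snoRNAs, so these host readings may hold snoRNA signal.

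The same was asked elsewhere in the series. A gene there is called the host by position alone, on either strand, and need not be the true host. Among 185 snoRNA genes placed inside exactly 1 tested gene (170 genes in all), 29 were lower in the knockout, or 15.7%, and 1 was higher. Most of the 185, and most of the 29, are predicted genes whose names begin with Gm. The 29 lay in 27 genes, of which 0 were lower, 2 were higher (Odc1 and Slc25a3) and 25 did not pass with limma. Pabpc4 and Prrc2b each held 2 of the 29, and those in Prrc2b had the same change, so they are not independent. Over the 185 pairs the host was lower in 7 and higher in 12, with genes that hold several snoRNAs counted more than once. The median change was -0.14 for the snoRNAs and 0.00 for the hosts. Changes as negative as that of Snora16a, or more so, were read for 10 of the 185, among them Snora31 in Tpt1 (-1.27, with the host at -0.03) and Snora47 in Zbed3 (-1.18, with the host at 0.06), both chosen after their values were seen. By box class, and without the snoRNAs of the members' hosts, 3 of 14 tested genes named Snora were lower and 0 higher (median -0.24), and 4 of 41 named Snord were lower and 0 higher (median -0.10). A difference between the box classes was not tested.

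Snhg12, Rcc1 and Snhg3 lie close together on chromosome 4, which sets host, coding gene and snoRNA side by side. In the order of that stretch, Snhg12 changed by -0.22, Snora16a by -0.97, Trnau1ap (a factor of selenocysteine insertion) by 0.09, Rcc1 by 0.05, Snhg3 by -0.16, Snora73b by -1.83, Snora73a by -1.88 and Phactr4 (a phosphatase and actin regulator) by -0.26. Both snoRNA groups passed the test, as did Phactr4 (SE 0.05; limma adjusted p = 0.0281). Rcc1 and Trnau1ap did not pass. Snora73a stands in this order by the position of its gene, while its cluster is marked as unmapped.

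**Figure D4:**
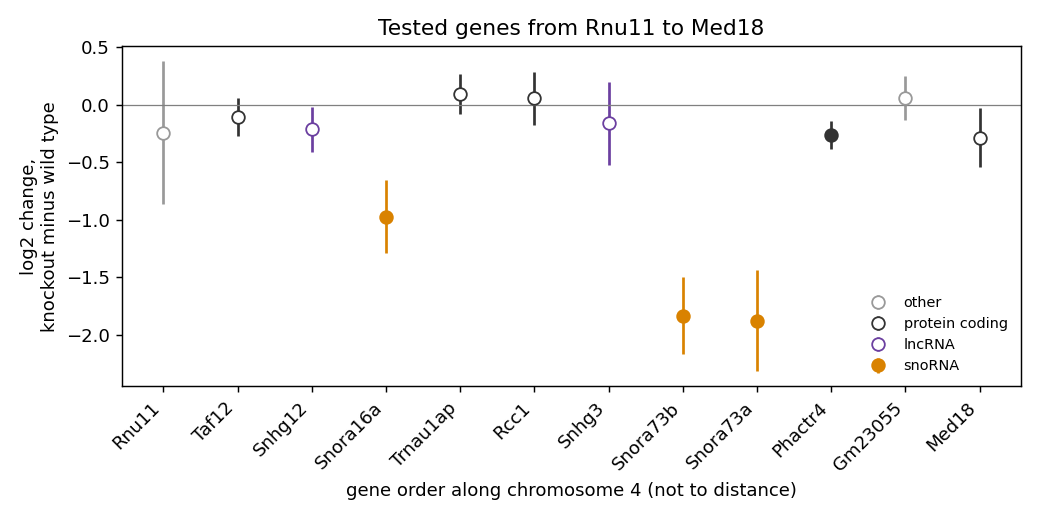
Log2 change, knockout minus wild type, of the tested genes from Rnu11 to Med18 in their order along chromosome 4 (not to distance), with 95% intervals. Filled points passed the test. The 3 snoRNAs stand at -0.97, -1.83 and -1.88 between genes that lie within 0.29 of 0. Snora73a is drawn at the position of its gene, while its cluster is marked as unmapped.

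Of 29 named genes that neighbour the members, 19 had a test, which 2 passed as higher and 4 as lower (against 2.96% and 4.84% of all tested clusters). Slc3a2, which lies next to Snhg1 and codes for the heavy chain of amino acid transporters, read 13.06, 12.95 and 12.98 in the knockout, against 12.41, 12.47 and 12.37 in wild type. The groups were well apart, and it rose by 0.58 (SE 0.05; limma adjusted p = 0.00206), or 1.49-fold (95% interval 1.37 to 1.63), a call kept in all 12 other settings, while the Snhg1 cluster beside it changed by -0.07. Rc3h1, which codes for the RNA-binding decay factor roquin and lies 59.6 kb from Gas5, rose by 0.35 (limma adjusted p = 0.0256). Besides Phactr4, the lower ones were Vcpip1 (-0.45, limma adjusted p = 0.0179), Frmd8 (-0.34, limma adjusted p = 0.0219) and Slc25a45 (-0.47, limma adjusted p = 0.0328). Vcpip1 codes for a deubiquitinase and lies 194 kb from Snhg6. Frmd8 lies 5.5 kb from Neat1 and 48.3 kb from Malat1. Slc25a45, a mitochondrial carrier gene, lies 32.3 kb from Neat1 and 75.1 kb from Malat1. The calls of Phactr4 (limma adjusted p of 0.0633 to 0.113) and Slc25a45 (0.0588 to 0.122) were lost without any 1 of the 6 arrays. That of Frmd8 was lost without any wild-type array or knockout array 1 or 2 (0.0605 to 0.0892), that of Vcpip1 without array 1 or 2 of either genotype (0.0512 to 0.075), and that of Rc3h1 without any wild-type array (0.0782 to 0.10). Rc3h1 also lost its call with arrays shifted to a common median (0.0715), and Phactr4 with no filter on dim clusters (0.0506).

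Other genes of the same processes were read from lists drawn up by function. Unlike the members, they were read only from clusters with 1 symbol. Listed genes seen only in a shared cluster, as hosts can be with their snoRNAs, were thus left out. In all, 122 tested genes on them gave 7 higher, or 5.74%, and 5 lower, or 4.10%. Of 13 other noncoding snoRNA hosts on the list 5 were tested (Snhg9, Snhg10, Snhg11, Snhg15 and Snhg17). Of these 5, 0 passed with limma, and 0 had an unadjusted p under 0.05, with changes between -0.09 and 0.09. Snhg11, which had the highest change, read 4.19 in the knockout and 4.10 in wild type, near the limit for testing of 4.09. Of 36 protein-coding hosts on the list 18 were tested, and their median was 0.01. Among them 1 was lower, Tnpo2, a nuclear import receptor (-0.40, limma adjusted p = 0.0259). The clusters read for Hspa8, Rpl12 and Rpl7a carry the number of another chromosome than the gene's, so they may not read the host itself. Hspa8, Rpl4, Eef2 and Rpl12 read above 18, where few differences were read. The proteins that assemble on snoRNAs gave 1 of 6 higher, Nop58 of the C/D particle (0.29, limma adjusted p = 0.0216), with a median of 0.10. Of 10 snoRNP assembly factors 1 was higher, Nolc1, the snoRNP chaperone Nopp140 (0.43; SE 0.05; limma adjusted p = 0.00535), whose call was kept in all 12 other settings.

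Of 9 nonsense-mediated decay factors 1 was lower, Casc3 of the exon junction complex (-0.29, limma adjusted p = 0.0264), with a median of -0.11. Of 19 genes of the exosome and nuclear RNA turnover, Mphosph6, an exosome-associated protein, was higher (0.43) and Zfc3h1, which links polyadenylated nuclear RNA to the exosome, lower (-0.36). Of 10 regulators of TOP messages, Larp1, which binds the tract, was higher (0.29) and Tia1, which binds such messages under stress, lower (-0.46; limma adjusted p = 0.0112). Of 12 paraspeckle proteins 0 passed with limma and 3 had an unadjusted p under 0.05 (median 0.01). Of 18 nuclear speckle proteins, the splicing coactivator gene Srrm1 was higher (0.24) and the splicing regulator gene Tra2b lower (-0.21). Of 16 other long noncoding RNAs, Lncpint and Morrbid were each higher by 0.29 and 0 were lower with limma. Airn, Miat, Pvt1, Xist and Tunar on this list had group means of 4.08 to 4.37, near the limit for testing of 4.09. Of the 16, 7 had an unadjusted p under 0.05 and the median was -0.05. The most negative changes there, named after their values were seen, were those of Peg13 (-0.51, limma adjusted p = 0.0879), Kcnq1ot1 (-0.43, limma adjusted p = 0.0593) and Oip5os1 (-0.27, limma adjusted p = 0.0626). This list gave 0 higher and 0 lower with a common median or no filter, 2 higher and 2 lower with the dimmest 60% left out, and 0 higher and 2 lower without knockout array 1.

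All but 1 of these 12 calls, that of Nolc1, were lost when some single array was left out. Over the 122 genes, 1 was higher and 0 lower without wild-type array 2, and likewise without wild-type array 3, while 2 were higher and 1 lower without wild-type array 1. Without knockout array 1, 1 was higher and 7 lower, without array 2, 3 higher and 1 lower, and without array 3, 2 higher and 2 lower. The call of Tia1 was lost without wild-type array 2 or 3 (limma adjusted p of 0.0561 and 0.0589). Nop58 lost its call without knockout array 1 or 2 and without wild-type array 2 or 3 (0.0536 to 0.09). Casc3, Tnpo2 and Zfc3h1 lost theirs without any wild-type array or knockout array 2 or 3 (0.0586 to 0.109), Larp1 and Lncpint without any wild-type array or knockout array 1 or 3 (0.056 to 0.141) and Tra2b without any wild-type array or knockout array 1 or 2 (0.0595 to 0.124). Srrm1, Morrbid and Mphosph6 lost theirs without any 1 of the 6 arrays (0.0548 to 0.165). A common median ended the calls of Srrm1, Tra2b, Larp1, Mphosph6, Morrbid and Lncpint (limma adjusted p of 0.0628 to 0.159). Without the intensity trend Srrm1, Tra2b and Larp1 lost theirs (0.0505 to 0.0773). Quantile normalization ended those of Srrm1 (0.187) and Tra2b (0.0609). With no filter those of Srrm1, Mphosph6, Morrbid and Lncpint were lost (0.0524 to 0.0796).

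Arrays agreed closely across clusters, with correlations of 0.995 or more. Cdk19 itself read 11.49, 11.42 and 11.51 in the knockout and 12.49, 12.45 and 12.38 in wild type, a change of -0.97 (limma adjusted p = 3.2e-04), and the deleted part is not given. Of the genes listed as HSC markers, Kit and Cd34 read 14.06 and 15.82 in the knockout, and 14.53 and 15.97 in wild type. The 10 tested ones had a mean level of 9.139 to 9.184 in the knockout arrays against 9.365 to 9.411 in the wild-type arrays. Of these 10, 3 (Meis1, Hlf and Kit) were lower. Cd34, and Cd3d below, were named after their values were seen. Markers of other cells moved beside the snoRNA changes. The 6 tested lymphoid-primed markers were all lower (5 of them in 4 of the 12 other settings), with a mean level of 9.997 to 10.08 in the knockout arrays against 10.96 to 10.99 in the wild-type arrays. Of 6 B cell markers 3 were lower (5.24 to 5.31 against 5.64 to 5.66), of 5 megakaryocyte markers 3 were higher (7.26 to 7.31 against 6.74 to 6.77), and of 10 granulocyte markers 3 were higher (8.63 to 8.80 against 8.41 to 8.51). The granulocyte count fell to 1 when knockout array 1 or 3 was left out, or wild-type array 2 or 3. It fell to 2 when either of the other arrays was left out, and with a common median, no filter or no intensity trend. Of 5 erythroid markers 1 was lower, of 8 monocyte markers 1 was lower (Irf8, a call lost without any wild-type array, limma adjusted p of 0.0526 to 0.0856), and of 4 T cell markers 0 were called by limma (1 at an unadjusted p under 0.05), with Cd3d at 4.60 in the knockout and 4.66 in wild type, near the limit for testing of 4.09. The part of these markers in the snoRNA readings was not tested.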

How the data were processed

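The samples were 3 arrays of Cdk19 knockout and 3 of wild-type HSCs. The authors deposited 1 log2 value per transcript cluster and array (read as log2 from values between 2.04 and 19.93). The submitters' processing notes name MAS5 with no role; for normalization, log base and build the sources used here give nothing. The number of arrays limits the precision, and p-values measure the spread between these arrays.

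Platform annotation gave 30604 clusters 1 symbol, 2146 several and 33206 none; 827 symbols were updated by gene ID. Each gene was read from its brightest cluster. Clusters that carried a member with other symbols were kept and named by all of them. The dimmest 40% were left out (limit 4.09), which left 39543 clusters. A model with genotype alone was fitted in R 4.3.3 (limma 3.58.1, intensity trend), with Benjamini-Hochberg adjustment over all tested clusters. Exact tests used scipy 1.17.1 and Python 3.11.15. The fit was tested on simulated data, where 69 of 100 changes of 1 and 51 of 100 changes of 0.5 were recovered, with 2 false calls. No other cluster was changed there. Changes as small as those of the members were not simulated. snoRNA genes were placed in hosts by position in RefSeq (GRCm38.p6), on either strand, since strand was not in that table, although the plan asked for the same strand. Same-numbered arrays did not deviate together (correlations -0.14, -0.10 and 0.02), so the numbers were not taken as pairs. Alternatives were quantile normalization, a common median, other filters, no trend, the replicate block, all clusters of a symbol and leaving out arrays.

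The text names all members, snoRNAs of their hosts, called neighbours, and up to 3 called genes per list and direction. The members and lists were chosen with earlier results of these data known.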

Additional observations from a re-analysis of the deposited data

How the results depend on the processing

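No member was called under any of 13 alternatives, and 3 snoRNA genes of their hosts stayed lower under each. Of these alternatives 1, the mean of all clusters of a symbol, changed the values of Snora73b only, so it could hardly alter the other results. Of the 10 member changes, those of Snhg6 (0.0067) and Rcc1 (-0.018) reversed, both without knockout array 3. With 1 array left out the log2 change of Snhg6 ran from -0.093 to 0.0067 and the log2 change of Rcc1 from -0.018 to 0.12. The snoRNA minus host difference ran from -1.88 to -1.49 for Snhg3, from -0.873 to -0.638 for Snhg12 and from -0.195 to 0.06 for Snhg6 with 1 array left out. The counts moved more, and the cause was not tested. With 1 array left out, clusters called numbered 540 to 970 higher and 761 to 1507 lower, and the 122 genes of the lists by function (context genes) 1 to 3 higher and 0 to 7 lower. With the replicate number as a block, clusters called higher numbered 630, clusters called lower 1083, and 1 context gene was called each way: Nolc1 higher, and Peg13 lower, which was not among the 5 lower genes of the report; those 5 lost their calls (limma adjusted p of 0.0548 to 0.116). The block also ended the calls of Rc3h1 (0.0886), Phactr4 (0.131), Frmd8 (0.105), Vcpip1 (0.0736) and Irf8 (0.0802), and left 1 granulocyte marker higher. Context genes called higher were 2 with a common median and 3 with no filter; those called lower were 9 with the dimmest 60% left out. Fewer arrays leave fewer degrees of freedom.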
